A study of Mus musculus with 17 samples.

Results

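T cells are recognised in tissue RNA by the transcripts of a small set of surface proteins. CD3 chains (Cd3d, Cd3e and Cd3g) carry the signal of the T cell receptor into the cell, CD4 and CD8 (Cd8a and Cd8b1) are the coreceptors of helper and cytotoxic T cells, and Lck is the kinase bound to both coreceptors. CD2 is an adhesion receptor, CD5 restrains receptor signalling, and the interleukin-7 receptor (Il7r) keeps resting T cells alive. These 10 genes were taken as a list, and a gene was read from the probe sets of the array whose entry in the probe-to-gene table is exactly that 1 symbol, with the probe set of the highest mean standing for the gene. By this rule 9 of the 10 genes were measured, with 15 probe sets between them, of 18193 genes measured in all. Lck had no such probe set and was not analysed here.

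The samples were colonic mucosa of PPARγ flfl; CD4Cre+ mice (CD4cre mice) and of PPARγ flfl mice without Cre (WT mice), both on the C57BL/6J background, taken on days 0, 2 and 7 of a challenge with 2.5% dextran sodium sulfate (DSS) in the drinking water, which injures the colonic epithelium. CD4cre mice lack PPARγ, a nuclear receptor that limits inflammation, in CD4+ and CD8+ T cells alike, because the promoter that drives the recombinase is active in thymocytes that carry both coreceptors. Both genotypes carry the floxed allele, and the floxed gene stays intact in the other cells of the colon. There were 3 samples of CD4cre mice on each of days 0, 2 and 7, 3 samples of WT mice on each of days 0 and 2, and 2 samples of WT mice on day 7. Neither the age of the mice nor whether a sample is 1 mouse is given in the sources used here, so a p-value below measures the spread between samples, which may be technical in part.

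Levels are log2 values in which background binding has been subtracted by the authors, and a gene that is not expressed keeps a low value that depends on its probes. Background was therefore set from 151 probe sets of 102 genes that belong to other tissues such as liver, skin, brain and muscle, at the 90th percentile of their values, 3.55. The 95th percentile, 6.23, had been planned as the level. Some of those genes had high values in these samples, such as Hpd with a mean of 10.4, and the planned level lay above every T cell marker. A 90th percentile leaves a fixed share of the values above it, and 15 probe sets of 9 of those genes had a mean above 3.55. The median of all values of the same list was 2.48. The range of a probe set from the lowest to the highest of the 17 samples had a median of 0.17 over the list. Colon epithelium was well represented, with a mean over 12 epithelial genes between 12.8 and 13.4 in each sample. Pparg averaged 10.1, 10.1 and 9.77 in CD4cre mice on days 0, 2 and 7, against 10.6, 9.39 and 10.4 in WT mice, so the deletion in T cells could not be checked from it in whole mucosa.

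Most T cell markers were at background in the colon of both genotypes on every day. Averaged over a group, only Cd8a and Il7r lay above 3.55 in CD4cre mice on days 0 and 2, and Cd3d joined them on day 7. In WT mice the markers above it were Cd3d, Cd4, Cd8a and Il7r on day 0, Cd3d, Cd8a and Il7r on day 2, and Cd3d, Cd3g, Cd8a and Il7r on day 7. At the planned level of 6.23 no marker was above background in any group. In bulk RNA fewer T cells and less RNA per T cell cannot be told apart.

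**Figure D1:**
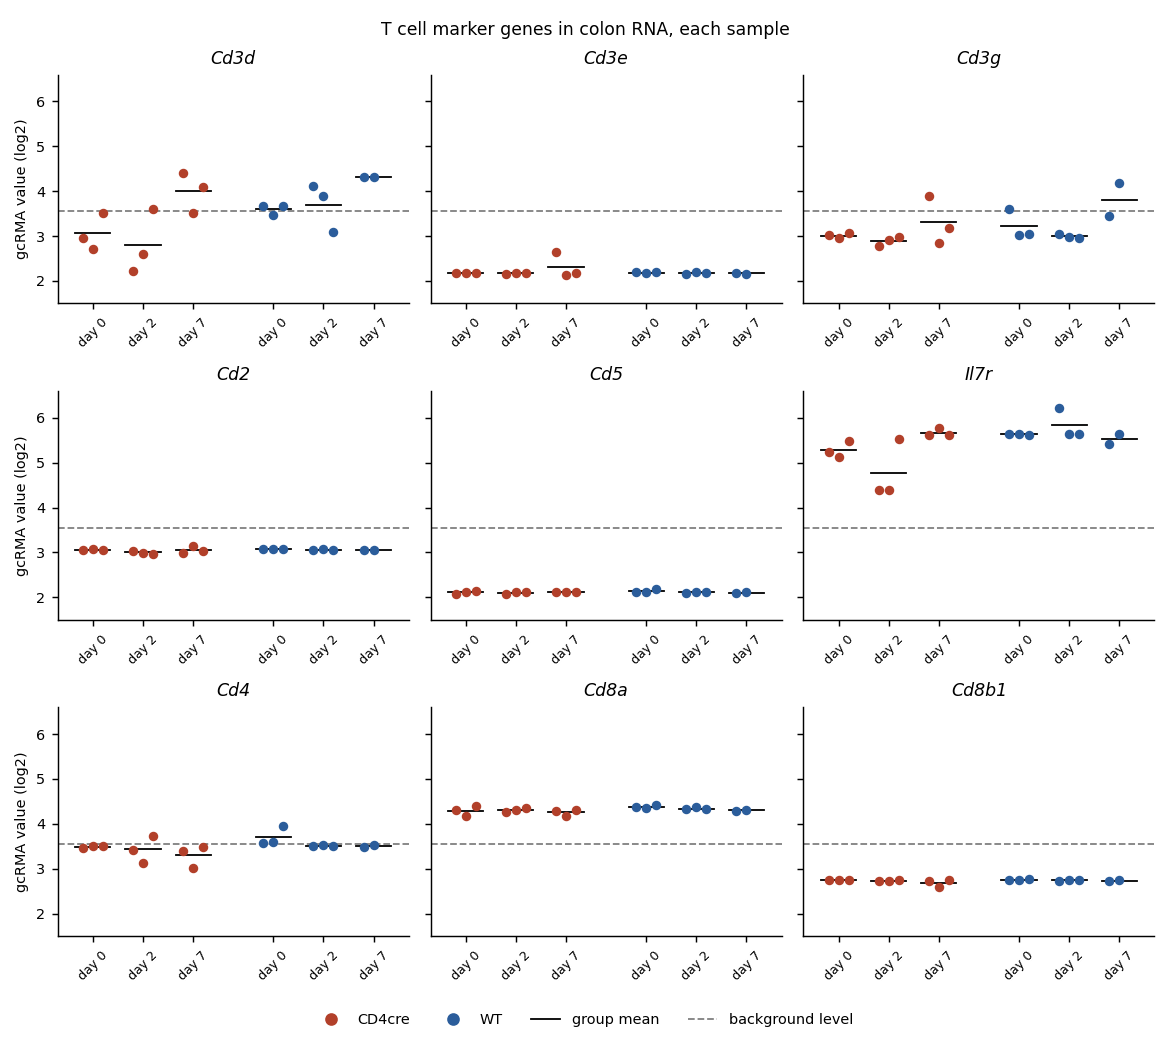
gcRMA values (log2, y axis) of the 9 T cell markers measured, in each sample of CD4cre mice (red, left) and WT mice (blue, right) on days 0, 2 and 7, with the group mean as a bar and the background level of 3.55 as a dashed line. Il7r and Cd8a are above the line in all 17 samples, Cd3d crosses it, and Cd2, Cd3e, Cd5 and Cd8b1 are below it throughout.

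Cd3d, whose product pairs with CD3 epsilon in the receptor complex, varied the most. Its value was 2.95, 2.72 and 3.52 in CD4cre mice on day 0, 2.22, 2.59 and 3.61 on day 2, and 4.40, 3.51 and 4.10 on day 7. In WT mice it was 3.67, 3.48 and 3.67 on day 0, 4.12, 3.88 and 3.09 on day 2, and 4.31 in both samples on day 7. It was above background in 9 of 17 samples, and its 4 lowest values were those of CD4cre mice on days 0 and 2. Ordered by group mean, Cd3d was highest in WT mice on day 7 (4.31 ± 0.00 SD, n = 2), followed by CD4cre mice on day 7 (4.0 ± 0.45 SD, n = 3), WT mice on day 2 (3.70 ± 0.54), WT mice on day 0 (3.61 ± 0.11), CD4cre mice on day 0 (3.06 ± 0.41) and CD4cre mice on day 2 (2.81 ± 0.72). Each neighbouring pair in this order overlapped.

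Il7r, the receptor chain that T cells share with other lymphoid cells, was the most clearly detected marker. It was 5.23, 5.12 and 5.47 in CD4cre mice on day 0, 4.38, 4.40 and 5.52 on day 2, and 5.61, 5.78 and 5.62 on day 7. In WT mice it was 5.64, 5.63 and 5.61 on day 0, 6.22, 5.65 and 5.63 on day 2, and 5.42 and 5.63 on day 7. The values of 13 of the 17 samples lay between 5.23 and 5.78, and those outside it were 3 low CD4cre samples of days 0 and 2 and 1 high WT sample of day 2. A second Il7r probe set stayed below background in all samples, at 2.78 to 3.48.

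Cd3g was near background in most samples and above it in 3. It was 3.02, 2.95 and 3.06 in CD4cre mice on day 0, 2.78, 2.91 and 2.98 on day 2, and 3.90, 2.85 and 3.18 on day 7. In WT mice it was 3.60, 3.03 and 3.06 on day 0, 3.05, 2.97 and 2.95 on day 2, and 3.44 and 4.19 on day 7. The 3 samples above background came from 3 groups, CD4cre mice on day 7, WT mice on day 0 and WT mice on day 7.

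The coreceptors lay near background or varied little. Cd4 lay between 3.01 and 3.95 and was above background in 4 samples, 1 of CD4cre mice on day 2 and the 3 of WT mice on day 0. A second Cd4 probe set was at 1.92 to 2.33 in 16 samples and at 4.11 in CD4cre day 7 replicate 2, the sample in which the main Cd4 probe set had its lowest value, 3.01. The probe sets of Cd4 thus disagree on that sample. Cd8a was above background in all 17 samples but between 4.18 and 4.41 throughout, a range of 0.23, while its other 4 probe sets were below 3.55 in all samples. Its partner Cd8b1 lay between 2.60 and 2.76.

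Cd2, Cd5 and Cd3e stayed below background in all samples. Cd2 ranged from 2.97 to 3.14 and Cd5 from 2.07 to 2.18 over the 17 samples. Cd3e was between 2.13 and 2.21 in 16 samples and 2.64 in CD4cre day 7 replicate 1, the CD4cre sample with the highest Cd3d and Cd3g. Among the 151 probe sets of other tissues, 78.8% had a range under 0.5, so the ranges of Cd2, Cd5, Cd8a and Cd8b1 (0.10 to 0.23) were of the size seen for genes of other tissues, while those of Cd3d (2.18), Il7r (1.84), Cd3g (1.41) and Cd4 (0.94) were larger than in at least 86.1% of them.

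**Figure D2:**
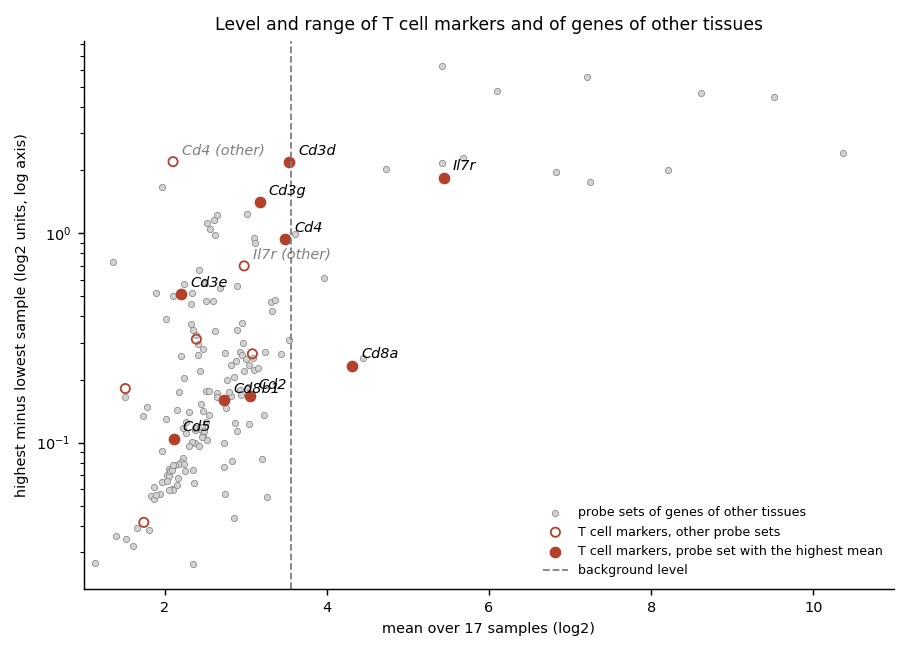
Mean over the 17 samples (x axis, log2) and range from the lowest to the highest sample (y axis, log2 units on a log axis) of the probe sets of T cell markers (red, filled for the probe set that stands for the gene and open for the others) and of genes of other tissues (grey), with the background level as a dashed line. Cd5, Cd2, Cd8b1 and Cd3e fall within the cloud of genes of other tissues, Cd8a lies right of the line at a range of 0.23, and Cd3d, Il7r and Cd3g lie at ranges of 1.41 to 2.18.

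The 3 CD3 genes lie together on chromosome 9, and Cd3g and Cd3d are read in opposite directions from starts 1355 bases apart, while Cd3e starts 27825 bases from Cd3d. Over the 17 samples Cd3d correlated with Cd3g with a Pearson r of 0.67 (0.43 after subtraction of the group means) and with Il7r with an r of 0.77 (0.73 after subtraction), and Cd3g and Il7r with an r of 0.29. These are descriptions over samples that share their arrays and groups. The promoters of the CD3 genes are shown because 2 of these neighbours, Cd3d and Cd3g, were among the markers with the widest ranges, while the probe set of Cd3e was below background in all samples and does not show how its RNA varied. They are RefSeq sequences of GRCm38.p6, 250 bases before to 50 bases after each start, written in the direction of the gene, and capitals mark CACCTG or its reverse complement, an E-box form bound by the E proteins of lymphocytes.
Cd3d, chr9:44981536-44981835, plus strand: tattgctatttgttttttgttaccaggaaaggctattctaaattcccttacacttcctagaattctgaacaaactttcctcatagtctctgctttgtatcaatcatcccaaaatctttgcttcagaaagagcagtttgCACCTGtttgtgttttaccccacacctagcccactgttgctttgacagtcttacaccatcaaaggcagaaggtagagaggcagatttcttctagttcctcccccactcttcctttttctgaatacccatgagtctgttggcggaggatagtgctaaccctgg
Cd3g, chr9:44980382-44980681, minus strand: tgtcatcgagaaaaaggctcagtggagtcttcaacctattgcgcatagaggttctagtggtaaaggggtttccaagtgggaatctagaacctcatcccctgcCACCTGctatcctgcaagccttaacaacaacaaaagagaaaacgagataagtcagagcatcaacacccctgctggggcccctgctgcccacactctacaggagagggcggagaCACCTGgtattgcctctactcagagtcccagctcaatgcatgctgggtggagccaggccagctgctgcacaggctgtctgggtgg
Cd3e, chr9:45009562-45009861, minus strand: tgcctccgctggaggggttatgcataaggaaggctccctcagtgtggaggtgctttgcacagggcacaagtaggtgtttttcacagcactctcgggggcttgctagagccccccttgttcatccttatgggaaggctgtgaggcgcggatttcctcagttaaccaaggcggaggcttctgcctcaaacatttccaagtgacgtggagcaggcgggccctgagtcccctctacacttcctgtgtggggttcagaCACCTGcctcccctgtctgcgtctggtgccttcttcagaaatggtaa
CACCTG was found 1 time in the Cd3d promoter, 2 times in that of Cd3g and 1 time in that of Cd3e, on either strand, and 20.2% of 32841 promoters of the same length hold it. Of the other letters searched on both strands, GGAA (in 96.0% of promoters) was found 6, 2 and 5 times in the promoters of Cd3d, Cd3g and Cd3e, AGATAA (in 11.2%) 1 time in that of Cd3g, CANNTG (in 72.3%, which includes CACCTG) 1, 4 and 2 times, and TGTGGT (in 16.8%) and TATAAA (in 13.6%) in none of the 3. The table held promoters for 7 of the 10 genes, and such matches only describe the letters in these windows.

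The comparisons asked whether T cell transcripts in the mucosa changed with the days of DSS and with the loss of PPARγ in T cells. No marker passed the test in any of 12 comparisons (limma, 6 group means, adjusted p under 0.05 over 45037 probe sets). On day 7 against day 0 in CD4cre mice 0 of 9 markers passed, where 6.74% of all probe sets did, and on day 7 against day 2 in CD4cre mice 0 of 9 passed, where 5.42% did. The share of all probe sets was 1.51% for CD4cre against WT mice on day 7, 0.449% in WT mice on day 2 against day 0, 0.244% in WT mice on day 7 against day 2, 0.0866% in WT mice on day 7 against day 0 and 0.0178% in CD4cre mice on day 2 against day 0. For CD4cre against WT mice it was 0.00666% on day 0, 0.0422% on day 2 and 0.135% averaged over the 3 days, and for the differences between the genotypes' DSS effects it was 0.00222% on day 2 and 0.14% on day 7. With 9 markers, a count of 0 is near these shares and sets the markers apart from other genes in no comparison. The median difference over the 9 markers was between -0.09 and 0.05 in all 12 comparisons, and that over all probe sets was between -0.03 and 0.00.

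At an unadjusted p under 0.05, 1 marker (Cd3d) was counted in CD4cre mice on day 7 against day 0, where 22.9% of all probe sets were, and 2 (Cd3d and Il7r) on day 7 against day 2, where 18.9% were. The same 2 markers were counted in CD4cre against WT mice on day 2 (7.33% of all probe sets) and in CD4cre against WT mice averaged over the 3 days (11.3%), and Cd3g was counted in WT mice on day 7 against day 2 (10.1%). No marker was counted in the other 7 comparisons. Their shares of all probe sets were 6.62% for CD4cre mice on day 2 against day 0, 9.6% and 9.57% for WT mice on days 2 and 7 against day 0, 4.52% and 15.2% for CD4cre against WT mice on days 0 and 7, and 4.28% and 9.83% for the differences between the DSS effects of days 2 and 7.

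Samples of the groups compared did not overlap for some markers, none of which passed the test. In CD4cre mice on day 7 against day 0, 1 of 9 markers (Il7r) was higher in every sample, as were 8.63% of all probe sets, and 1 (Cd8b1) was lower, as were 36.6%. On day 2 against day 0, Cd2 and Cd8b1 were lower in all samples of CD4cre mice (15.6% of all probe sets), and Cd2 and Cd4 in those of WT mice (10.2%). In WT mice 5 markers were lower in both samples of day 7 than on day 0 (35.8%), and Il7r and Cd8a were lower on day 7 than on day 2 (18.8%). Between genotypes Cd2, Il7r and Cd4 were lower in all CD4cre samples on day 0 (7.97%), and Cd2 and Il7r on day 2 (6.38%).

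In CD4cre mice Cd3d averaged 4.0 on day 7, against 3.06 on day 0, a log2 difference of 0.94 (SE 0.37, 95% interval 0.14 to 1.74, adjusted p = 0.156), and the samples of the 2 days overlapped. As the mean of day 0 lay below background, the difference was 0.46 (adjusted p = 0.192) with values under 3.55 raised to it. Against 2.81 on day 2 the difference of Cd3d on day 7 was 1.20 (SE 0.37, adjusted p = 0.0847), and 0.44 with values raised in this way. Il7r averaged 5.67 on day 7, against 4.77 on day 2, and its 3 samples of day 7 were all above those of day 2 (difference 0.91, SE 0.26, adjusted p = 0.0654), as were 6.93% of all probe sets. In the comparison of day 7 with day 2 the side of the threshold depended on the samples and the filter used. Without CD4cre day 2 replicate 3 the difference was 1.60 for Cd3d (adjusted p = 0.0258) and 1.28 for Il7r (adjusted p = 0.0036). That sample had the highest Cd3d and Il7r of day 2, the lower group, so leaving it out had to widen both differences. Both also passed when probe sets above background in fewer than 3 samples were left out before the adjustment (adjusted p = 0.0376 for Cd3d and 0.031 for Il7r). On day 2 against day 0 in CD4cre mice the widest difference was that of Il7r, which averaged 4.77 on day 2 and 5.27 on day 0 (difference -0.51, SE 0.26, adjusted p = 0.754), and it ran from -0.89 to -0.32 as each day 2 sample was left out.

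In WT mice Cd3g averaged 3.81 on day 7, against 2.99 on day 2, a difference of 0.82 (SE 0.28, 95% interval 0.22 to 1.42, adjusted p = 0.307), and Cd3d averaged 4.31 on day 7, against 3.61 on day 0 (difference 0.71, SE 0.41, adjusted p = 0.488). The samples of both pairs did not overlap. The difference of Cd3g was 0.32 with values under background raised to it, and 0.45 without WT day 7 replicate 2. In WT mice on day 7 against day 2, samples did not overlap, higher, for 2 of 9 markers and for 14.6% of all probe sets, and in WT mice on day 7 against day 0 they did so for 1 of 9 markers and for 10.1% of all probe sets, with only 2 samples on day 7. Il7r in WT mice averaged 5.84 on day 2, against 5.63 on day 0 (difference 0.21, SE 0.26, adjusted p = 0.778), and 0.01 without WT day 2 replicate 1, the sample at 6.22.

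Between genotypes the point estimates were mostly lower in CD4cre mice, without a call. The difference was negative for 9 of 9 markers on day 0, 9 of 9 on day 2 and 6 of 9 on day 7, and for 65.8%, 62.4% and 60.7% of all probe sets, and 4 of the markers (Cd2, Cd3e, Cd5 and Cd8b1) were below background in all samples. Il7r on day 2 averaged 4.77 in CD4cre mice and 5.84 in WT mice, with no overlap of samples (difference -1.07, SE 0.26, 95% interval -1.63 to -0.51, adjusted p = 0.230). Without CD4cre day 2 replicate 3 this difference was -1.45 (adjusted p = 0.0074), and with the second probe set of Il7r it was -0.21. Cd3d averaged 3.06 in CD4cre mice and 3.61 in WT mice on day 0 (difference -0.55, SE 0.37, adjusted p = 0.967), and on day 2 the difference was -0.89 (SE 0.37, adjusted p = 0.617). With values under background raised to it, these differences were -0.08 on day 0 and -0.28 on day 2, and without the 3 samples with pancreatic transcripts that of day 2 was -0.51. On day 7 the widest difference was that of Cd3g, at 3.31 in CD4cre mice and 3.81 in WT mice (difference -0.50, SE 0.28, adjusted p = 0.447). It was -0.13 without WT day 7 replicate 2, -0.88 without WT day 7 replicate 1, -0.28 without CD4cre day 7 replicate 2, -0.80 without CD4cre day 7 replicate 1, and -0.20 with values raised to background.

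Averaged over the 3 days, Cd3d differed by -0.58 (SE 0.22, 95% interval -1.06 to -0.10, adjusted p = 0.358) and Il7r by -0.42 (SE 0.16, 95% interval -0.76 to -0.09, adjusted p = 0.341) between CD4cre and WT mice, and the difference of Cd3d was -0.22 with values raised to background. Of the alternatives run, Il7r passed the threshold here only without CD4cre day 2 replicate 3 (-0.55, adjusted p = 0.0456). The DSS effects of the 2 genotypes were also set against each other. For Il7r the effect of day 2 was lower by 0.72 in CD4cre mice than in WT mice (difference -0.72, SE 0.36, adjusted p = 1; -1.09 without CD4cre day 2 replicate 3), and that of day 7 differed by 0.50 (SE 0.39, 95% interval -0.34 to 1.35, adjusted p = 0.819).

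**Figure D3:**
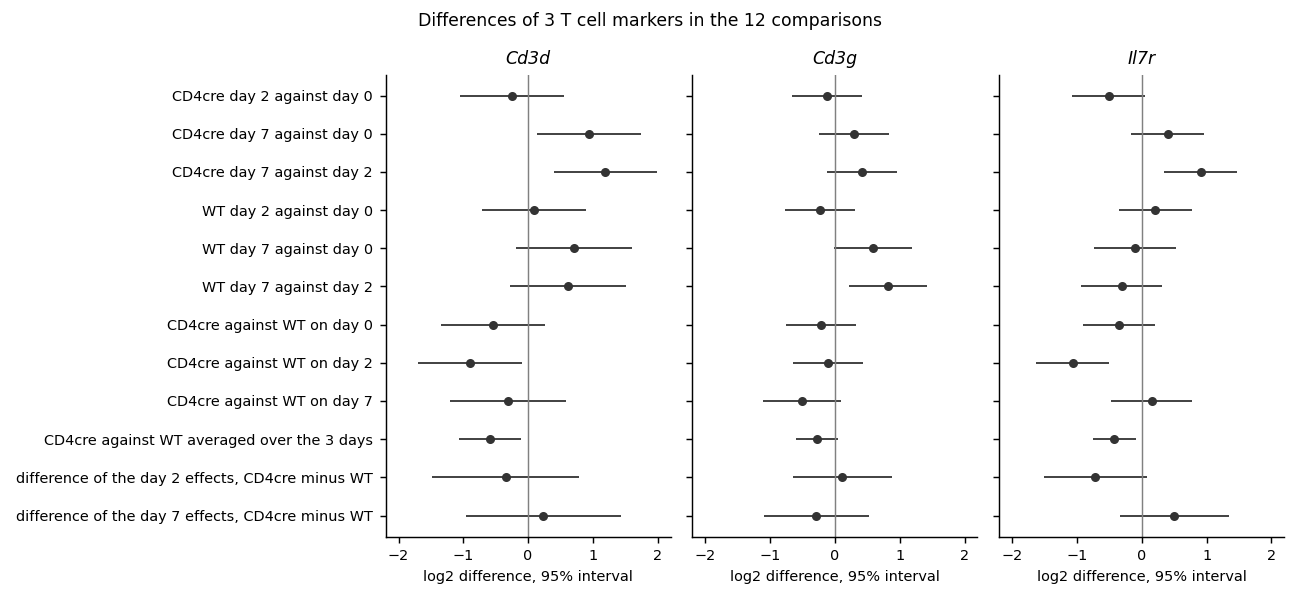
Log2 differences of Cd3d, Cd3g and Il7r in the 12 comparisons (x axis, log2 units), with 95% intervals from the limma fit. Intervals that leave out 0, such as that of Il7r for CD4cre against WT mice on day 2 (-1.63 to -0.51), are those of an unadjusted p under 0.05, and none passed after adjustment over all probe sets.

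Over the 12 comparisons the lowest and highest bounds were -1.69 and 2.00 for Cd3d, -1.11 and 1.42 for Cd3g and -1.63 and 1.47 for Il7r.

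Most other genes of T cells were at background too. Of 70 further genes in 5 lists (receptor signalling, regulatory T cells, T helper factors and cytokines, naive and recirculating lymphocytes, intraepithelial and cytotoxic lymphocytes), 61 were measured, of which 38 were above background in no sample, 15 in some and 8 in all. Below background in all 17 samples were Cd247, the zeta chain of the receptor, Zap70, the kinase that binds it, the costimulatory receptor Cd27, the lineage factors Foxp3 (regulatory), Tbx21 and Gata3 (T helper), the cytokines Ifng, Il4 and Il17a, and Prf1, the pore protein of cytotoxic cells. The 8 genes above background in all samples were Fyn, Rora, Bcl6, Ikzf2, Satb1, Klf2, Bcl11b and Itgae, several of which are also expressed by cells that are not T cells.

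Of the 61 genes, 1 was called in CD4cre mice on day 7 against day 0 (8.67% of all genes), 2 on day 7 against day 2 (7.33%), and none in the other 10 comparisons, in which 1 to 10 passed at an unadjusted p under 0.05, where 4.83% to 18.6% of all genes did. In the 2 comparisons with calls 13 and 12 of the 61 passed unadjusted, where 26.1% and 22.9% of all genes did. The gene called in both was Gzmb, the granule protease of cytotoxic lymphocytes, with a mean of 5.82 in CD4cre mice on day 7, against 4.16 on day 0 and 4.25 on day 2 (difference from day 0 1.66, SE 0.36, adjusted p = 0.0193). Its call against day 0 was lost in 4 of 17 fits that each left out 1 sample, including that without CD4cre day 7 replicate 2 (adjusted p = 0.0535), and its call against day 2 in 5 of 17. Against day 0 it was also lost in a fit of only the groups compared (adjusted p = 0.208) and without the 3 samples with pancreatic transcripts (adjusted p = 0.0937). The other was Bcl6, a repressor used by follicular helper T cells, germinal centre B cells and other cells, at 9.03 on day 7, against 7.72 on day 2 (adjusted p = 0.0434), and its call was lost in 16 of the 17 fits. Gzma, Klrd1 and Ccl5 of the cytotoxic list varied without a call. Gzma was above background in 6 samples, namely CD4cre day 0 replicate 3 (5.92), CD4cre day 7 replicates 1 and 3 (5.70 and 3.66), WT day 0 replicate 1 (5.67) and both WT samples of day 7 (5.15 and 7.13), which include all 3 samples with Cd3g above background. Klrd1, a receptor chain of natural killer and cytotoxic cells, ran from 3.30 to 6.40 and correlated with Cd3g (r = 0.78) and Cd3d (r = 0.77), and Ccl5, a chemokine of cytotoxic cells, ran from 2.51 to 6.33 (r = 0.64 and 0.75).

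Markers of some other leukocytes changed where no T cell marker passed the test. In CD4cre mice on day 7 against day 0, 12 of 13 monocyte and macrophage genes and 8 of 12 pan-leukocyte genes rose (4.35% of all genes were called higher), with median differences of 2.05 and 1.49, while 0 of 9 T cell markers and 0 of 20 genes of receptor signalling were called, nor were any of 11 B cell genes, and 1 of 9 plasma cell genes (Prdm1) was. Of 9 dendritic cell genes Itgax and Batf3 were called higher in this comparison, though Batf3 stayed below background (1.93 and 2.48). Of 9 lymphoid follicle genes Cxcl13 (difference 2.59) and Madcam1 (2.47) were called higher. Of the 20 signalling genes, 7 passed at an unadjusted p under 0.05, where 26.1% of all genes did. The mean of the pan-leukocyte list was 7.03 to 8.42 in CD4cre mice on day 7, against 5.91 to 6.19 on day 0, and that of the T cell markers was 3.26 to 3.56 on day 7, against 3.18 to 3.34 on day 0. Of the 9 T cell markers 2 and 3 averaged above background in CD4cre mice on days 0 and 7, and of the 20 signalling genes 1 and 3. For the 13 monocyte and macrophage genes this was 12 and 13, and for the 12 pan-leukocyte genes 9 and 12. A mean below background on day 0 did not bar a call, as Itgam rose from 3.16 to 5.20 and Ikzf1 from 2.97 to 4.31. A rise of T cell RNA that stays below background can still be missed. Whether T cells rose with other leukocytes cannot be told from these counts. In WT mice on day 2 against day 0, 2 of 11 B cell genes (Ms4a1 and Cd79b) and 2 of 9 lymphoid follicle genes (Cxcl13 and Glycam1) rose (0.434% of all genes were called higher), and 0 of 9 T cell markers. Ms4a1 (r = 0.53) and Cd79b (r = 0.55) moved with a score made of Hox genes, which differ along the gut. The 3 WT samples of day 2 stood apart from all others in this score, so group and score cannot be told apart for them. With the score as a covariate, or without the 3 samples with pancreatic transcripts, none of either list was called, while fits that each left out 1 sample gave 0 to 2 B cell genes and 0 to 4 follicle genes. CD4cre day 7 replicate 2 had the highest means of the pan-leukocyte (8.42) and monocyte and macrophage (9.53) lists and of receptor signalling (3.49), where Lcp2 was 7.36, Cd69 4.68, Icos 3.81 and Ctla4 3.59, against 2.61 to 4.22, 2.91 to 3.65, 2.52 to 2.80 and 2.76 to 2.96 in the other 16 samples. In that sample Cd3d was 3.51 and Cd3g 2.85, the lowest of CD4cre mice on day 7. Cd3e, Cd4, Cd5, Cd8a and Cd8b1 were also lowest there within that group. Il7r (5.78), Cd2 (3.14) and the second probe set of Cd4 (4.11) were the highest of that group in the same sample. Without that sample no T cell marker was called on day 7, and 11 of 13 monocyte and macrophage genes (median difference 1.68) and 8 of 12 pan-leukocyte genes (1.17) rose in CD4cre mice on day 7 against day 0. When the fit held only the CD4cre samples of these 2 days, none of either list was called, and without the 3 samples with pancreatic transcripts 9 and 5 were.

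**Figure D4:**
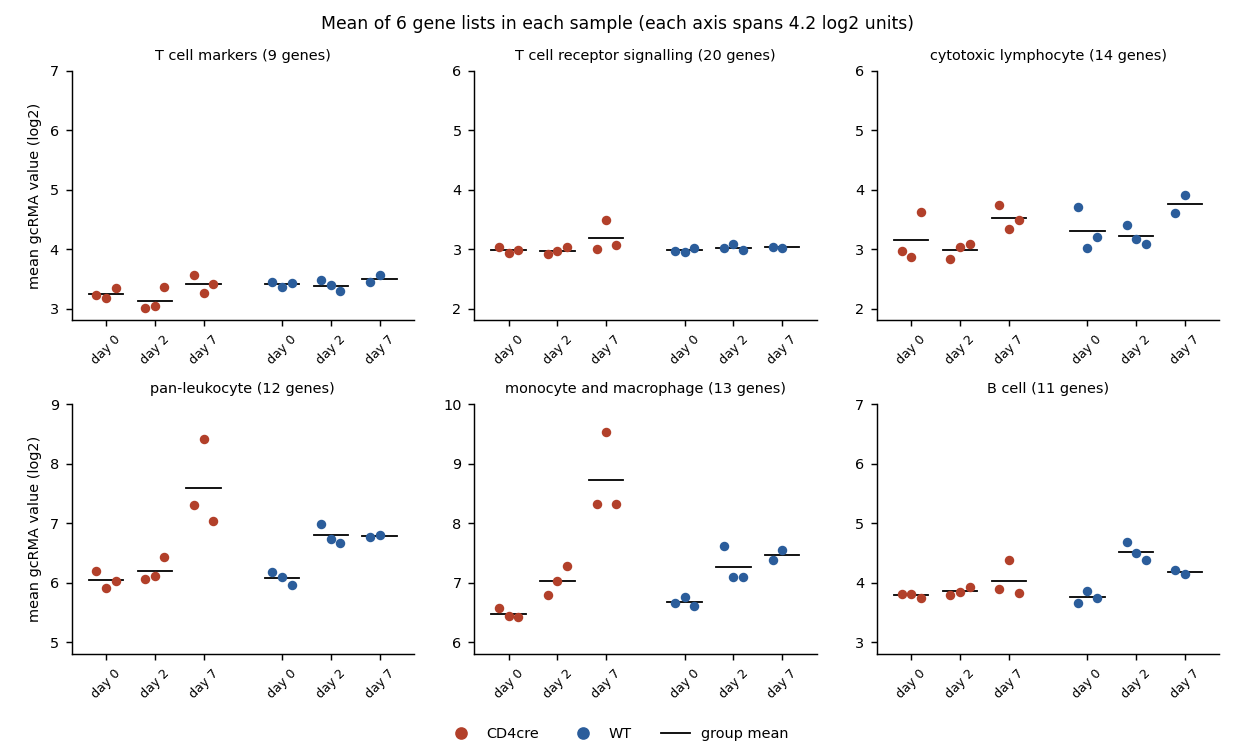
Mean gcRMA value (y axis, log2) of 6 gene lists in each sample of CD4cre mice (red, left) and WT mice (blue, right) on days 0, 2 and 7, with group means as bars and each axis spanning 4.2 log2 units. The pan-leukocyte and the monocyte and macrophage lists are highest in CD4cre mice on day 7. The mean of the T cell markers, most of which are at background, stays between 3.01 and 3.56 in all 17 samples.

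The samples also differed in ways their groups do not name, and some of these moved with the markers. A Hox score, the mean of 8 posterior minus the mean of 9 anterior Hox genes, which differ along the gut, lay between -0.70 and 0.80 in CD4cre mice. In WT mice it was 1.06 to 1.30 on day 2, -0.47 to 0.27 on day 0 and -0.75 to -0.70 on day 7. The Hox genes did not all move with the score as labelled. The score is made of such genes, so the r of a gene that enters it is in part built in. Of the posterior genes set against it, Hoxa10, Hoxa13 and Hoxb13 rose with it (r = 0.79 to 0.97), Hoxa11 little (0.18), and Hoxb9 fell (-0.53). Of the anterior genes, Hoxb3, Hoxb5 and Hoxb6 fell with it (-0.91 to -0.87), while Hoxa2, Hoxa3 and Hoxa5 rose (0.28, 0.51 and 0.67). Cd3g was lower where the score was higher (r = -0.64, permutation p = 0.0041, Spearman's rho -0.73, over 17 samples), with an r of -0.70 without the 2 samples farthest from the median and of -0.49 within groups. After adjustment over the 18 relations computed, p was 0.0156 for r and 0.0054 for rho. These p-values are of r and rho over all 17 samples, so they take in differences between groups. No p-value was computed for the r within groups. The relation of Cd3d was not past the threshold over all samples (r = -0.45, adjusted permutation p = 0.201, rho -0.53, adjusted p = 0.0767), with an r of -0.83 without the 2 farthest samples, both WT mice on day 2, and of -0.65 within groups. With the score as a covariate the difference of Cd3g in WT mice on day 7 against day 2 was 0.10 in place of 0.82. That of Cd3d was 0.64 in place of 1.20 in CD4cre mice on day 7 against day 2 (adjusted p = 0.298), 0.30 in place of 0.71 in WT mice on day 7 against day 0, and -1.48 in place of -0.89 between CD4cre and WT mice on day 2. That of Il7r was 0.57 in place of 0.21 in WT mice on day 2 against day 0, and -1.28 in place of -1.07 between CD4cre and WT mice on day 2. The scores of WT mice on day 2 lay above those of all other samples, and those of WT mice on day 7 below those of WT mice on day 0. Adjusted differences between such groups rest on a slope carried beyond their samples, and score and group cannot be told apart in them. The part of the position along the colon in these results was not tested.

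**Figure D5:**
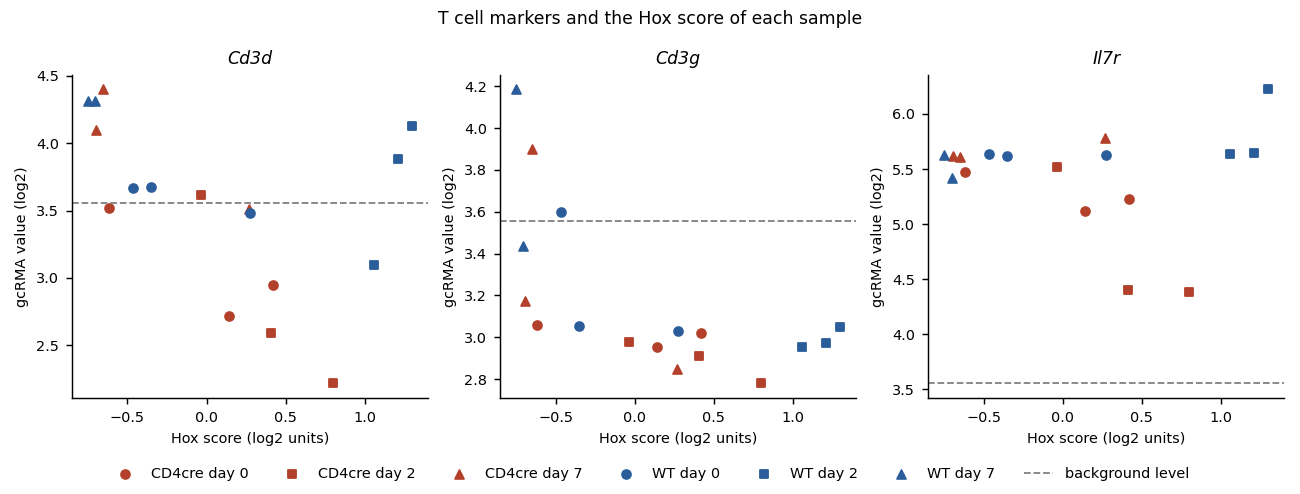
gcRMA values (y axis, log2) of Cd3d, Cd3g and Il7r against the Hox score of each sample (x axis, log2 units), by genotype (red, CD4cre mice; blue, WT mice) and day (symbol), with the background level as a dashed line. The 3 samples with Cd3g above background have scores between -0.75 and -0.47.

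Pancreatic enzyme genes had a median above 12 in replicate 2 of CD4cre mice on day 0, in replicate 1 of CD4cre mice on day 2 and in replicate 2 of WT mice on day 2, while the other 14 samples did not exceed 2.42. The first of these CD4cre samples had the lowest Cd3d of its group (2.72), and so did the second (2.22), while the WT sample lay inside its group (3.88). Without the 3 samples the difference of Cd3d in CD4cre mice on day 7 against day 2 was 0.90 in place of 1.20, that of Il7r 0.71 in place of 0.91, and that of Il7r between CD4cre and WT mice on day 2 was -0.97 in place of -1.07. Some markers moved with the background of the array itself, and its part in their values was not tested. The median of the genes of other tissues, between 2.42 and 2.52, correlated with Cd5 (r = 0.69), Cd8b1 (r = 0.67), Cd8a (r = 0.65) and Cd4 (r = 0.76), with adjusted permutation p of 0.0156, 0.0034, 0.0156 and 0.0034 among the same 18 relations. Without the 2 samples farthest from the median r was 0.68, 0.87, 0.53 and 0.77 in the same order, and Spearman's rho over all samples was 0.73, 0.87, 0.81 and 0.85. Within groups r was 0.59, 0.58, 0.55 and 0.65, without a p-value, while the p-values over all samples take in differences between groups. Cd3e had an r of -0.08 and a rho of 0.65 (adjusted p = 0.0165), and Cd3d an r of 0.12.

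The genes most like the markers in pattern were sought among 11151 genes above background in at least 9 samples, by the correlation with the mean of Il7r and Cd8a, the markers above background in every group. The 10 genes with the highest r over the 17 samples were Trbv1 (r = 0.87), Usp21 (0.83), Ptprcap (0.81), Phyhipl and Fam25c (both 0.76), A330048O09Rik (0.75), B2m, Hr and Eri2 (all 0.74) and Garem2 (0.73). Trbv1, a variable segment of the T cell receptor beta chain, ran from 3.48 to 6.44, and Ptprcap encodes a protein that associates with the leukocyte phosphatase CD45. After subtraction of the group means the 10 were Trbv1 and Nxph3 (both 0.88), Usp21 (0.86), Ssc5d, Mboat7, 1700010H22Rik and Ift88 (all 0.84), Mex3b and Trp53bp2 (both 0.83) and Slc11a2 (0.81), so that Trbv1 and Usp21 were on both lists. As Cd8a was nearly flat, this pattern was that of Il7r, and Trbv1 was also the gene most like Cd3d over the 17 samples (r = 0.87), a comparison added after the values were seen.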

How the data were processed

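Total RNA of colonic mucosa from 17 samples was hybridised to Affymetrix Mouse 430 2.0 arrays. The authors made the deposited log2 values with gcRMA, which subtracts background by probe sequence, in R 2.9.0. The values used here, 45037 probe sets after 64 control probe sets were left out, ran from 0.76 to 16.47, and their precision is limited by the number of arrays. Of all tested probe sets, 48.0% to 49.3% were above background in a sample. The probe-to-gene table gave 34945 probe sets 1 symbol, 932 several and 9160 none.

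Groups came from the labels. A limma fit (version 3.58.1, R 4.3.3) of 6 group means over all samples, with empirical Bayes and Benjamini-Hochberg adjustment over all probe sets, gave 12 comparisons with a threshold of 0.05. It was tested on simulated data in which only probe sets with a mean well above background were changed. No marker had a mean that high (Il7r, the highest, was at 5.45), so this test does not cover them. In each comparison the test values named are those of called markers or, with none called, of the marker with the largest absolute difference among those above background in a group compared, and Cd3d, Cd3g and Il7r were also named elsewhere after their values were seen. Correlations with sample measures used permutation tests (scipy 1.17.1), two-sided. The markers and gene lists were chosen with earlier results of these data known. No columns of the authors' own comparisons were used. Promoter sequences came from RefSeq. Alternatives were other sample sets, normalizations, filters and probe sets, a replicate block, the Hox score as a covariate and leaving out each sample. The same alternatives were applied to the other gene lists after the data were seen.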

Additional observations from a re-analysis of the deposited data

How the results depend on the processing

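The count of T cell markers called was 0 in all 12 comparisons and stayed 0 under most alternatives. It was 1 (Cd8b1) under median centring for CD4cre mice on day 7 against day 0, where 18002 of 45037 probe sets were called and the cause was not tested, and 2 (Cd3d and Il7r) with a filter on low values for CD4cre mice on day 7 against day 2, where fewer probe sets entered the adjustment. With each sample omitted in turn, 0 to 2 markers passed for CD4cre mice on day 7 against day 2, and 0 to 1 for CD4cre against WT mice on day 2 and averaged over the 3 days, in each case above 0 only without CD4cre day 2 replicate 3, and 0 in the other 9 comparisons. At the 90th percentile of genes of other tissues the markers above background numbered 2, 2 and 3 in CD4cre mice and 4, 3 and 4 in WT mice on days 0, 2 and 7, against 0 in every group at the 95th and 99th percentiles. The log2 differences of the 1 marker picked by rule in each of the 12 comparisons kept their direction under all alternatives run. Of their values, 3 crossed the threshold towards a call, against 313 that stayed on their side. Il7r, named outside that rule, also crossed in CD4cre mice on day 7 against day 2, without CD4cre day 2 replicate 3 and with the filter. Averaged over the 3 days, Il7r crossed without that sample. Cd3d in CD4cre mice on day 7 against day 2 ran from 0.44, with values floored at background, to 1.60, Il7r in CD4cre against WT mice on day 2 from -1.45 to -0.21, and Cd3g in WT mice on day 7 against day 2 from 0.10 to 1.19. With the replicate number as a block 0 markers were called in each comparison, and it changed no call. Of 40 correlations between the deviations of same-numbered samples 12 were over 0.1 (range -0.49 to 0.51). Samples with different numbers were not correlated in this way for comparison. These values therefore do not settle whether same-numbered samples share a batch. The fit of only the groups compared was not run for the average over days, which uses all groups. A gene at background limits what these arrays can show of a change.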

Other observations

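Muc13 (r = 0.84), Psmb9 (r = 0.83), Cxcl9 (r = 0.79) and B2m (r = 0.79) were among the 10 genes whose values were most like those of Cd3d over the 17 samples. They were chosen after their values were seen, the samples share groups and arrays, and after subtraction of the group means none of these 4 was among the 10. Psmb9 ran from 6.06 to 9.08, Cxcl9 from 2.62 to 8.09 and B2m from 13.7 to 14.8.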
